A study of Mus musculus with 2 samples.

Results

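The 6 genes described here belong to the aryl hydrocarbon receptor pathway: Ahr, Arnt, Ahrr, Tiparp, Cyp1a1 and Cyp1b1. They were chosen by name, and all probes of the Agilent array that carry 1 of these names were taken, which gave 10 probes among the 39429 that are not controls and 6 of 28312 genes with a symbol. RNA came from immortalized mouse embryonic fibroblasts (MEF) of a C57BL/6 x B6:129 Ola background. Control cells and THOC5 depleted cells both carried floxed THOC5 alleles and a Rosa26ERT2 Cre, a recombinase that enters the nucleus once tamoxifen binds it. Control cells are labelled wildtype and are given without tamoxifen, whereas THOC5 depleted cells (the depleted cells) are labelled THOC5 knockdown and had received tamoxifen for 2 days. An effect of tamoxifen and one of the loss of THOC5 therefore cannot be told apart in these samples. There was 1 dual-color array per condition. On each, Cy3 carried cRNA of unstimulated cells and Cy5 carried cRNA of the same cells after 1 h of fetal calf serum. The study describes starving cells of serum before stimulation, so that unstimulated cells are taken here as serum-starved. No array of exchanged dyes was among those used here. No p-value is given, because no condition was repeated and a dye effect could not be averaged out.

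THOC5 is a subunit of the THO complex, which couples transcription to the processing and export of mRNA. The aryl hydrocarbon receptor (AHR) is a ligand-activated transcription factor of the basic helix-loop-helix PAS family that waits in the cytoplasm with HSP90 and co-chaperones. Once it binds a dioxin, a polycyclic aromatic hydrocarbon or a tryptophan metabolite, it moves to the nucleus, pairs with ARNT and binds the dioxin response element, whose core reads GCGTG. Cyp1a1 and Cyp1b1, which encode cytochrome P450 enzymes that oxidise such compounds, are its classical targets, and so are Ahrr and Tiparp, whose products dampen the receptor. Fibroblasts are known for a high basal expression of Cyp1b1, and Tiparp is also known as a gene that growth factors induce.

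The promoters of these genes are shown because the core of the response element can be read in them. RefSeq sequences (GRCm38.p6) that span 250 bases before to 50 bases after the gene start were matched for 5 of the 6 members, and Ahr was not among them. The 250 bases before the start are printed for the 3 genes that serum moved 1.5-fold or more on at least 1 array (Tiparp, Cyp1a1 and Cyp1b1) and for Ahrr, which was not detected. Capitals mark the core, as GCGTG or, where it lies on the other strand, as its reverse complement.
Tiparp: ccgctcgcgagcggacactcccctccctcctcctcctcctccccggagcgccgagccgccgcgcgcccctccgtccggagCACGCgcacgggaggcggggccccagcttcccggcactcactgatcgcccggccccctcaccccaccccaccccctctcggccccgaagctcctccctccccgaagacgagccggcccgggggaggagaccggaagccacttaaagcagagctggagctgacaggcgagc
Cyp1a1: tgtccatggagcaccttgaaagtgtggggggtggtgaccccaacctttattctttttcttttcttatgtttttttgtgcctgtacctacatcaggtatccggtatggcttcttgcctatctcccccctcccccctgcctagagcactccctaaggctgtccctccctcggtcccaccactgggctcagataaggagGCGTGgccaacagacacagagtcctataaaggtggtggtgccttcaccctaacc
Cyp1b1: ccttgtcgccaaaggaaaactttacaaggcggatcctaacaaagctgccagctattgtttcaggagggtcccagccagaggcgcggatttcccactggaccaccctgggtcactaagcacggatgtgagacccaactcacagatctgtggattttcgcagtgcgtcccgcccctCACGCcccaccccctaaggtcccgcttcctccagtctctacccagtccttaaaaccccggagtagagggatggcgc
Ahrr: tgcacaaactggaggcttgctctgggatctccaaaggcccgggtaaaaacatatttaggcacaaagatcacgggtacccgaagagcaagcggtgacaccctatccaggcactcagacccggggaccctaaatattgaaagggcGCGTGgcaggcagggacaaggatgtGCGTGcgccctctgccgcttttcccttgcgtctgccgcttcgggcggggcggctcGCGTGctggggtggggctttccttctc
The Tiparp stretch lies at chr3:65528197-65528446 on the plus strand, that of Cyp1a1 at chr9:57697363-57697612 on the plus strand, that of Cyp1b1 at chr17:79715062-79715311 on the minus strand and that of Ahrr at chr13:74292332-74292581 on the minus strand. Over the whole 300 bases and both strands, Tiparp, Cyp1a1, Cyp1b1 and Arnt held 1 core each and Ahrr held 3. The core began 170 bases before the start in Tiparp, 54 in Cyp1a1, 76 in Cyp1b1 and 29 in Arnt, and the nearest of the 3 began 27 bases before it in Ahrr. Of 32851 promoters in the same table, 32.4% held GCGTG, so that the core alone is common. The cAMP response element TGACGTCA, found in 1.79% of promoters, occurred in Arnt at 239 bases before the start and in no other of these members. The AP-1 site TGANTCA (7.81% of promoters) and the E-box CACGTG (7.15%) were found in none of the 5. A match is a description of the letters in this window and not evidence that a factor binds there.

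The processed signal is the scanner software's intensity after background subtraction and dye normalization within the array. Of the 10 probes, 7 were called well above background in all 4 channels and 3 in no channel. The detected probes covered 5 genes. The undetected ones were both probes of Ahrr and 1 of the 2 probes of Ahr. The error given with a signal is that of the software, which is dominated by a fixed part of 10% of the signal, and the serum ratio is the Cy5 over the Cy3 signal of a spot. A smaller error comes from probes printed 10 times, as the SD of their spots' log2 ratios. At the members' brightness it lay between 0.017 and 0.121, and it covers only the array surface.

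**Figure D1:**
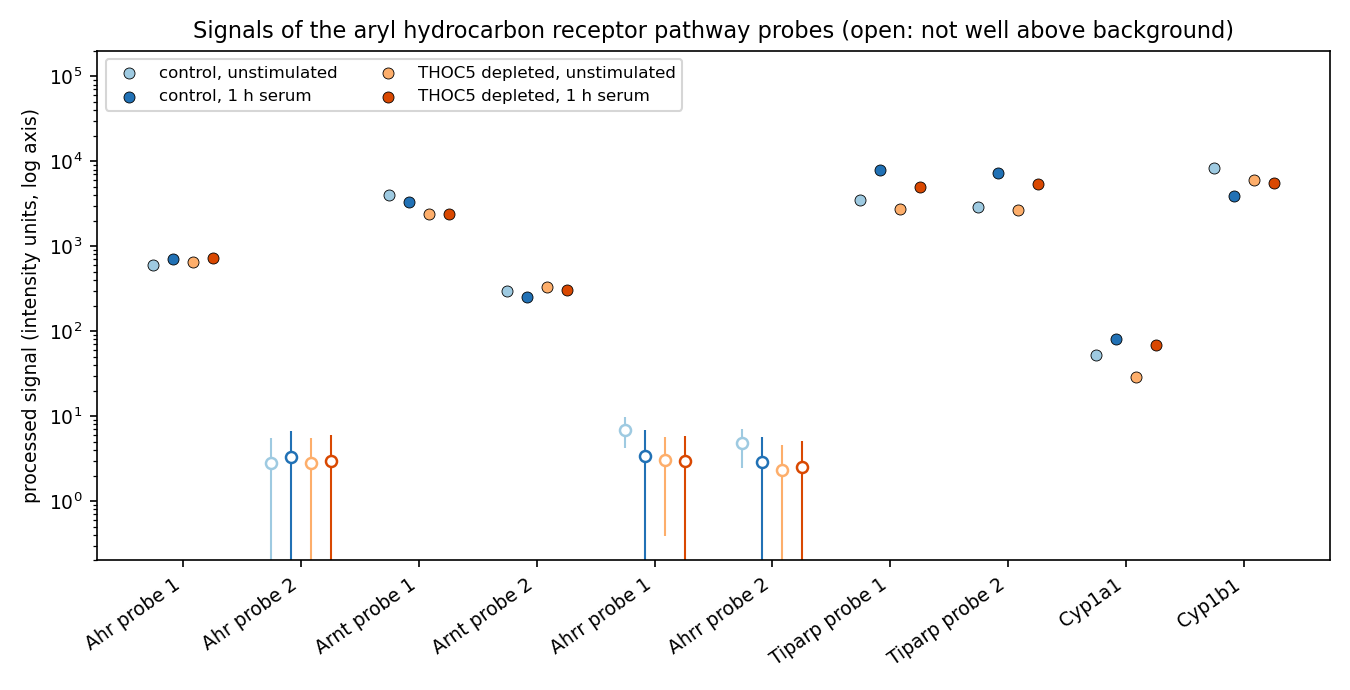
Processed signal (log axis) of all 10 probes of the 6 genes in the 4 channels, with the error of the scanner software; open circles were not well above background. Ahrr and the second Ahr probe sit near 3 in nearly every channel, while both Tiparp probes rise with serum on both arrays and Cyp1b1 falls only in control cells by more than its errors.

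Ahr, which encodes the receptor, passed no limit in any comparison. The detected Ahr probe (chr12:36182724-36182783, minus strand, mm9) gave a signal of 605 ± 60.6 in unstimulated control cells and 710 ± 71.1 after serum. In THOC5 depleted cells the signals were 655 ± 65.6 and 733 ± 73.4. The 4 signals lie close together, and serum raised Ahr 1.17-fold in control cells and 1.12-fold in the depleted cells, log2 ratios of 0.23 and 0.16 with a software error of 0.20 each. The serum ratios on the arrays differed by 0.07 in log2, less than the error of 0.29. A second Ahr probe, whose start lies 5799 bases away towards the 5′ end of the gene, read between 2.77 and 3.32 in every channel, near the software's own error for it, so that it holds no measurement of the transcript. The difference between these probes of 1 gene was not resolved with the files used here.

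ARNT, the obligate partner of AHR in the nucleus, was represented by 2 probes that were well above background in all 4 channels. The brighter one (chr3:95301081-95301140, plus strand, mm9) read 3963 ± 396 in unstimulated and 3357 ± 336 in serum-stimulated control cells, against 2385 ± 238 and 2417 ± 242 in the depleted cells. The other, 1647 bases upstream, read 300 ± 30.1, 252 ± 25.5, 334 ± 33.6 and 303 ± 30.5 in the same order. Serum ratios of Arnt were close to 1 on both probes: 0.847 in control and 1.01 in the depleted cells for the brighter probe, and 0.841 and 0.907 for the other. No Arnt serum ratio passed 1.5-fold in either direction.

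AHRR, the repressor that competes with AHR for ARNT, was not detected. Its 2 probes (chr13:74350685-74350744 and chr13:74348566-74348612, minus strand, mm9) read 6.96 and 4.79 in unstimulated control cells, and between 2.30 and 3.42 in the other 3 channels. The lowest signal called well above background was between 10.9 and 14.0 in these channels, above every Ahrr value. No fold is therefore given for Ahrr, in spite of the 3 response element cores printed above.

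Tiparp, a mono-ADP-ribosyltransferase that modifies AHR and limits its activity, was the member that serum raised on both arrays and on both probes. Its brighter probe (chr3:65358749-65358808, plus strand, mm9) rose from 3481 ± 348 to 7879 ± 788 in control cells and from 2750 ± 275 to 4937 ± 494 in the depleted cells. The other probe (chr3:65357710-65357769), 1039 bases upstream, rose from 2925 ± 293 to 7342 ± 734 and from 2680 ± 268 to 5389 ± 539. On each array the serum signals of both probes lie above the unstimulated ones by more than the errors. The increase was 2.26-fold (log2 1.18, error 0.20) in control cells and 1.80-fold (log2 0.84, error 0.20) in the depleted cells for the brighter probe, and 2.51-fold and 2.01-fold for the other. The serum ratio was thus 1.26 times larger in control than in the depleted cells on the brighter probe and 1.25 times on the other, in log2 0.33 and 0.32, both just above the error of 0.29. When the log ratios of both arrays were brought to one spread, that difference was -0.01. A higher serum ratio than that of Tiparp was found for 391 of 18814 genes (2.08%) in control cells, and for 279 of 18574 in the depleted cells.

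Cyp1a1, the classical reporter of an active receptor, was dim but detected in all 4 channels (chr9:57551535-57551594, plus strand, mm9). It read 51.9 ± 6.05 in unstimulated and 79.9 ± 8.88 in serum-stimulated control cells, and 28.6 ± 4.28 and 68.1 ± 7.61 in the depleted cells. The serum signals are alike on the 2 arrays before any scaling, and the lowest of the 4 values is that of unstimulated depleted cells. Serum raised Cyp1a1 1.54-fold in control cells (log2 0.62, error 0.23) and 2.38-fold in the depleted cells (log2 1.25, error 0.27). The ratio was 1.55 times larger in the depleted cells, a log2 difference of 0.63 with an error of 0.36. In THOC5 depleted cells only 102 of 18574 genes (0.549%) had a higher serum ratio than Cyp1a1. With normexp background correction (offset 50) and loess together, serum raised it 1.29-fold in control and 1.53-fold in the depleted cells, and it then passed neither the limit of 1.5-fold in control cells nor that of 1.3-fold between the ratios.

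Cyp1b1, the cytochrome P450 of the pathway that fibroblasts are known to express, went the other way (chr17:80106547-80106606, minus strand, mm9). Its signal fell from 8378 ± 838 to 3896 ± 390 in control cells, whereas it was 5995 ± 600 and 5522 ± 552 in the depleted cells. Only the control array shows a fall larger than the errors. The fold reduction by serum was 2.15 in control cells (log2 -1.10, error 0.20) and 1.09 in the depleted cells (log2 -0.12, error 0.20), so that the serum ratio was 1.98 times larger in the depleted cells (log2 difference 0.99 in size, error 0.29). In control cells 249 of 18814 genes (1.32%) had a lower serum ratio. The difference between the arrays was exceeded in the same direction by 145 of 17240 genes (0.841%).

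**Figure D2:**
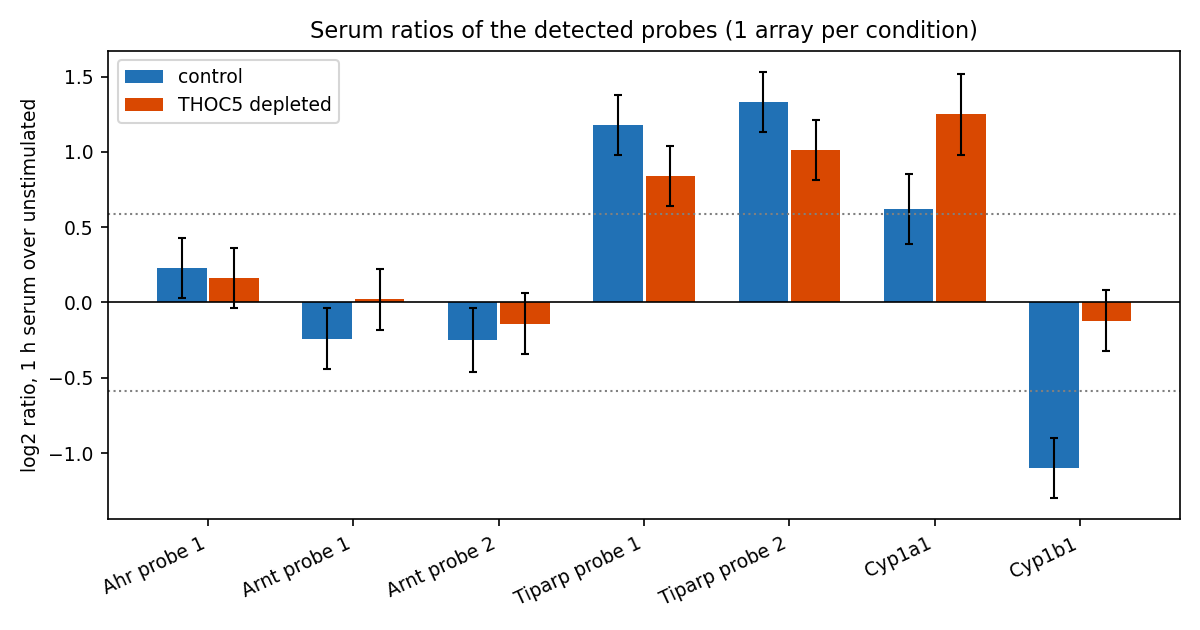
Log2 ratio of 1 h serum over unstimulated signal for the 7 detected probes in control and THOC5 depleted cells; bars start at 0, whiskers are the error of the scanner software and dotted lines mark 1.5-fold. Both Tiparp probes and Cyp1a1 are above the upper line on both arrays, and Cyp1b1 is below the lower line in control cells alone.

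Counted against all genes, 2 of the 5 detected members (Tiparp and Cyp1a1) were raised 1.5-fold or more by serum in control cells, where 6.71% of 18814 genes were, and 1 of 5 (Cyp1b1) was lowered, where 5.82% were. Cyp1a1 no longer passed in control cells with normexp and loess (log2 0.37) or with one spread of log ratios (log2 0.54). In THOC5 depleted cells 2 of 5 (Tiparp and Cyp1a1) were raised, against 3.48% of 18574 genes, and 0 of 5 were lowered, against 1.56%. A serum ratio at least 1.3-fold larger in the depleted than in control cells was found for 2 of 5 (Cyp1a1 and Cyp1b1), against 10.2% of 17240 genes, and a ratio smaller by as much for 0 of 5, against 8.36%. With 5 genes these shares are a description only. Among 1073 genes that serum raised in control cells, 66.4% had a smaller ratio in the depleted cells, a limit that Tiparp did not reach, and 0.559% had a larger one. The latter were 6 genes, of which Cyp1a1 was 1, though with normexp and loess it met neither condition (log2 0.37 in control cells, difference -0.24). The others were Fos, Dusp1, Tent5c, Socs3 and EG665756, listed after their values were seen. Among 947 genes that serum lowered in control cells, 79.1% had a larger ratio in the depleted cells, so that Cyp1b1 did what most such genes did. The control ratio enters both sides of these last comparisons.

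**Figure D3:**
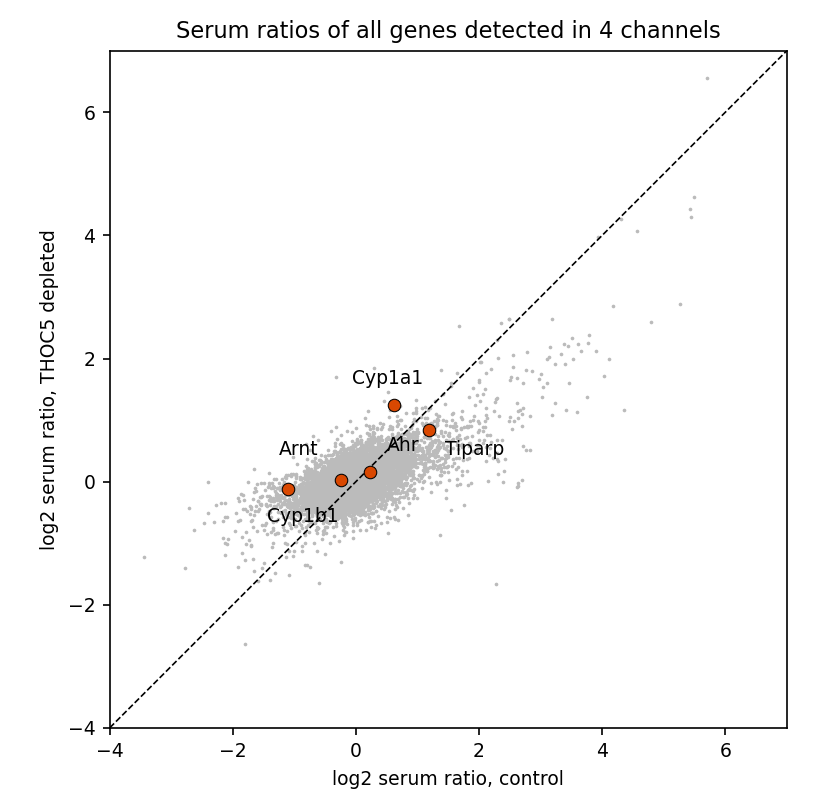
Log2 serum ratio in the depleted cells against that in control cells for 17240 genes well above background in all 4 channels (grey), with the 5 detected members in orange and the line of equal ratios dashed. Cyp1a1 and Cyp1b1 lie above the line, Tiparp lies below it, and Ahr and Arnt lie within the cloud.

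Levels in THOC5 depleted over control cells were compared within each channel after both arrays had been given the same distribution of mean signals (Aquantile). No member changed 2-fold or more: 0 of 5 were lower in unstimulated cells, against 2.08% of 19090 genes, and 0 of 5 higher, against 2.22%. After serum 0 of 5 were lower, against 2.25% of 18706 genes, and 0 of 5 higher, against 2.45%. For Ahr the log2 level was higher in the depleted cells by 0.40 without and by 0.33 with serum, with an error of 0.20 each. The 2 Arnt probes went in opposite directions, with -0.41 and -0.16 for the brighter one and 0.38 and 0.49 for the other, so that no direction can be given for the level of Arnt. The brighter Tiparp probe differed by -0.02 in unstimulated cells and by -0.35 after serum, and the other by 0.20 and -0.12.

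The level of Cyp1a1 was lower by 0.72 on the log2 scale in unstimulated depleted cells (1.64-fold, error 0.27) and differed by -0.09 after serum (error 0.23). Cyp1b1 showed the reverse order. Its level differed by -0.15 in unstimulated cells (error 0.20) and was higher by 0.83 in the depleted cells after serum (1.78-fold, error 0.20). Without any scaling, which shifts the median of all genes by -0.26 in both channels, these values were -0.86 and -0.23 for Cyp1a1 and -0.48 and 0.50 for Cyp1b1, of nearly equal size in both channels, and those of Ahr shrank to 0.11 and 0.05. After scaling by the 75th percentile the serum value of Cyp1a1 was 0.05, of the opposite sign. Because these are bulk samples, fewer cells that express a gene and less RNA of it per cell cannot be told apart.

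**Figure D4:**
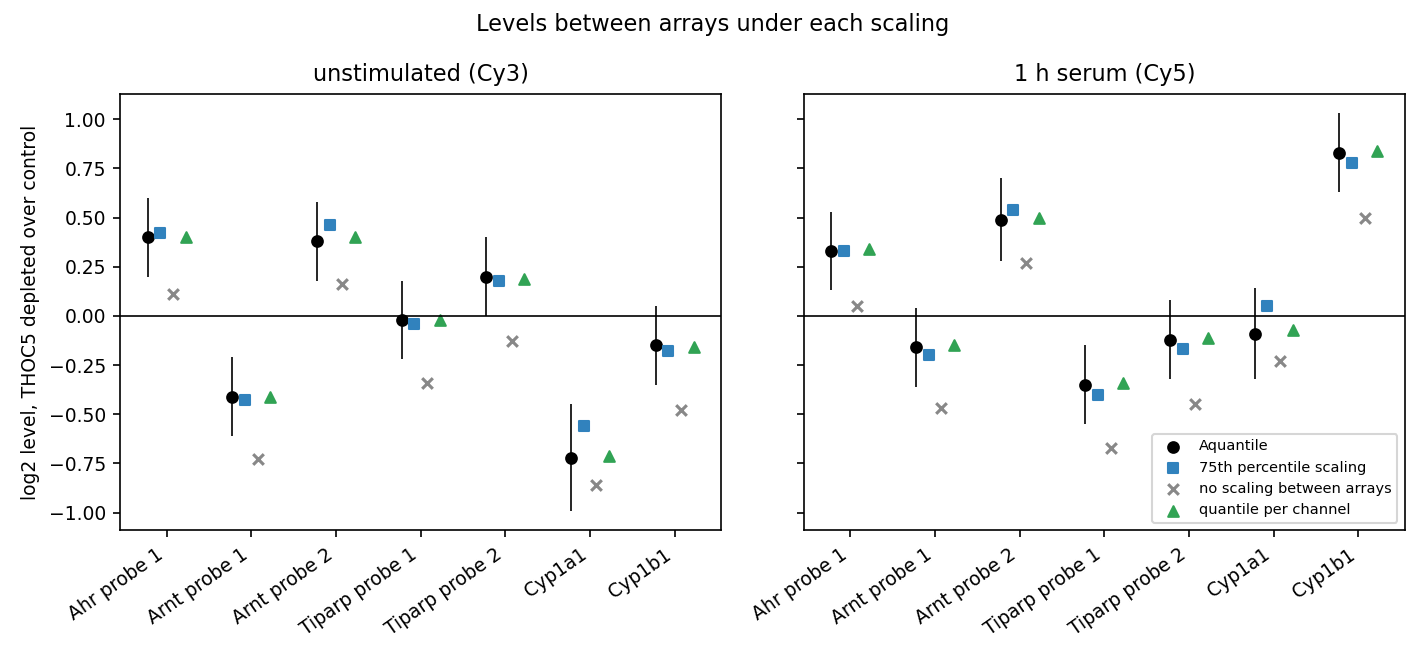
Log2 level in THOC5 depleted over control cells for the 7 detected probes, in unstimulated cells (left) and after 1 h of serum (right), under 4 ways of scaling the arrays; whiskers are the software error for Aquantile. Cyp1b1 is the highest probe after serum under each scaling, Cyp1a1 the lowest in unstimulated cells, and the Arnt probes lie on opposite sides of 0.

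The genes whose 3 values (serum log2 ratio on each array and unstimulated level between arrays) lay nearest to those of a member, by Euclidean distance among 17240 genes, were listed for each. For Tiparp they were Ankrd7, Prkab2 and Cd300a, at distances of 0.051 to 0.086. For Cyp1b1 they were Zfp983, Stat2 and Isl2, at 0.060 to 0.099. Stat2, a transcription factor of interferon signalling, fell to 0.466-fold in control and 0.890-fold in the depleted cells, next to 0.465-fold and 0.921-fold for Cyp1b1. Cyp1a1 had no close neighbour, since the nearest 3 genes (C130030J05, Gm17019 and 4933411B09Rik) were at 0.341 to 0.407. Those of Ahr were Dcbld1, Cacng7 and Msantd1 (0.023 to 0.044) and those of Arnt were Sdc2, Mark3 and Fkbp1b (0.023 to 0.032). With 3 values per gene, such nearness says only that the numbers are alike.

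The other genes of the pathway were read from lists of known members. In the cytoplasmic receptor complex, all 5 genes were detected and 0 of 5 passed 1.5-fold with serum on either array, where 6.71% of all genes were raised and 5.82% lowered in control cells and 3.48% and 1.56% in the depleted cells. The median log2 ratios were -0.03 and -0.12, beside -0.02 and -0.01 for all genes. Ptges3, the HSP90 co-chaperone p23, had a ratio of 0.839 in control and 0.841 in the depleted cells, and Cdc37, a further co-chaperone, of 0.849 and 0.838. Hsp90ab1, a constitutive HSP90, had ratios of 1.11 and 1.05.

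Among 16 dimer partners and other bHLH-PAS factors, 12 were measured and 4 of 12 were raised by serum on each array, beside 6.71% of all genes in control and 3.48% in the depleted cells, with 0 lowered. Npas4, a factor known from activity-dependent transcription in neurons, rose from 121 to 799 in control cells and from 118 to 360 in the depleted cells, 6.58-fold and 3.05-fold. Per1 and Per2, negative regulators of the circadian clock, rose 2.16-fold and 1.67-fold in control cells and 1.74-fold and 1.99-fold in the depleted cells. Arntl, the clock partner related to ARNT, was past the limit only in control cells (1.51-fold, 1.05-fold in the depleted cells). Npas3 was past it only in the depleted cells (1.56-fold, 1.04-fold in control cells). It was dim, with 34.9 after serum on both arrays, and 33.6 in unstimulated control and 22.4 in unstimulated depleted cells. Arntl and Npas3 are named after their values were seen. The median log2 ratio of the list was 0.32 in control and 0.27 in the depleted cells.

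Of 16 coregulators, 2 were raised in control cells and 1 in the depleted cells, beside 6.71% and 3.48% of all genes, and none was lowered. Klf6, a zinc finger factor that can pair with AHR, rose 1.95-fold in control and 2.22-fold in the depleted cells. Esr1, the oestrogen receptor that AHR is known to cross-talk with, rose 1.52-fold in control cells and had a ratio of 0.962 in the depleted cells. Cul4b, a ubiquitin ligase scaffold, had ratios of 0.816 and 0.831.

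In the battery of other metabolic genes that the receptor is known to control, 11 of 16 were measured. None of the 11 was raised by serum in control cells and 3 of 11 were raised in the depleted cells, and 5 of 11 had a serum ratio at least 1.3-fold larger there. The median log2 ratio of the list was 0.04 in control and 0.30 in the depleted cells. Nqo1, a quinone reductase, went from 5568 to 5727 in control cells (1.03-fold) and from 3487 to 5486 in the depleted cells (1.57-fold). Gsta1 and Gsta2, glutathione transferases, had ratios of 1.47 and 1.44 in control cells and 2.40 and 2.74 in the depleted cells. Of the 11, 5 (Por, Abcg2, Cyp2s1, Cyb5r3 and Nfe2l2) had a smaller log2 ratio in the depleted than in control cells, from 0.35 to -0.02 for Por and from 0.36 to 0.35 for Nfe2l2. The sequences of Gsta1 and Gsta2 are near-identical, so that a probe may have read both, and they may count as 1 observation. Cyp1a2, the third gene of the Cyp1 family, was not well above background in any channel, and neither was Ugt1a6a. Among all genes 6.71% were raised in control cells and 3.48% in the depleted cells, and 10.2% had a larger ratio in the depleted cells. The list was not tested as a set.

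Of the enzymes that make or remove AHR ligands, Ido1, Ido2, Tdo2 and Kynu of the kynurenine pathway were not well above background in any channel. The list holds 10 genes, of which 5 were well above background somewhere, and none of these passed 1.5-fold with serum, beside the same shares of all genes as for the receptor complex. Kmo, a later enzyme of that pathway, had ratios of 1.17 and 1.16, and Aanat, of melatonin synthesis, of 1.23 and 1.13. Il4i1, an amino acid oxidase whose products can activate AHR, read 63.6 and 42.9 in control cells and 78.0 and 81.1 in the depleted cells. Its level after serum was higher in the depleted cells by 1.09 in log2, past 2-fold as 2.45% of all genes were, but only after scaling between the arrays, since the signals themselves differ by less.

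A further 11 genes were listed as relatives of Tiparp in its family, whether or not each encodes an active transferase, and all were detected. In control cells 0 of 11 were raised and 3 of 11 were lowered by serum. In the depleted cells 0 of 11 passed either limit, and 5 of 11 had a larger serum ratio there. Among all genes 6.71% were raised and 5.82% lowered in control cells, and 3.48% and 1.56% in the depleted cells. A larger ratio in the depleted cells was found for 10.2%. Parp14 went from 1692 to 792 in control cells (0.468-fold) and from 801 to 693 in the depleted cells (0.865-fold). Parp9 had ratios of 0.499 and 0.768, and Parp10 of 0.545 and 0.861. Parp9 and Parp14 are known as interferon-induced genes. All 3 were lowered past 1.5-fold only in control cells, as Cyp1b1 was. The median log2 ratio of the family was -0.49 in control and -0.09 in the depleted cells.

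**Figure D5:**
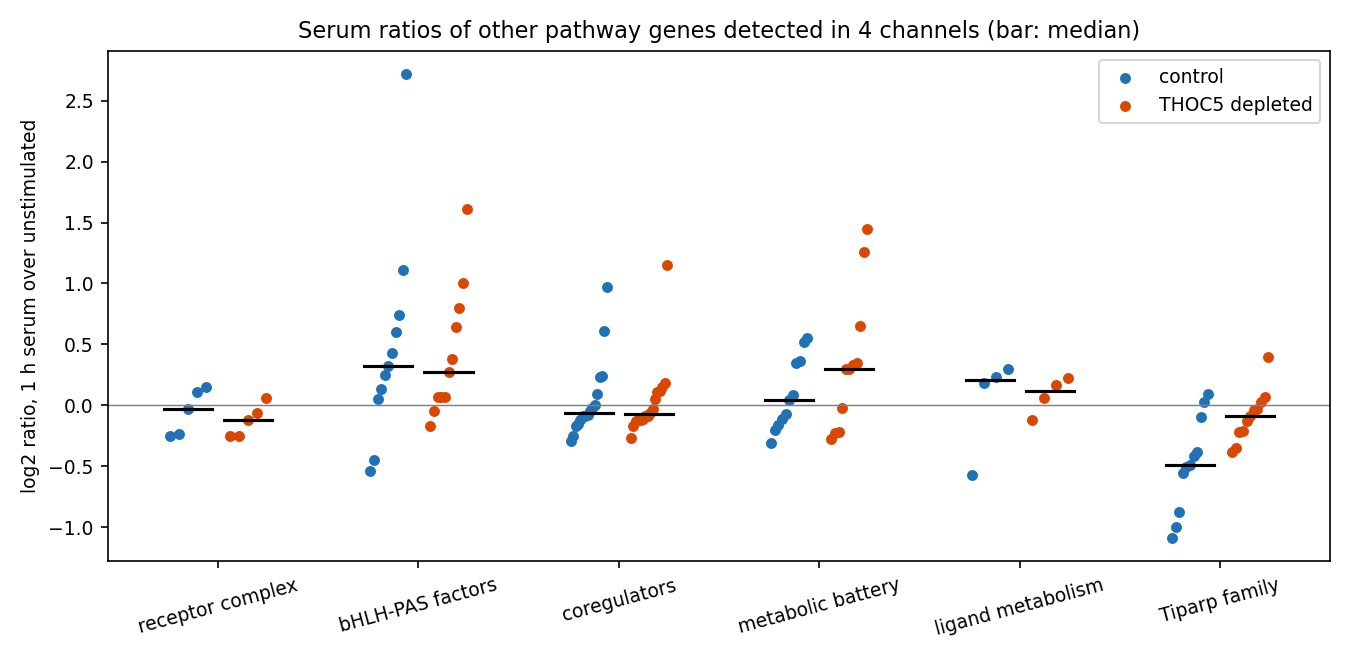
Log2 ratio of 1 h serum over unstimulated signal for the other pathway genes that were well above background in all 4 channels, grouped by list; each point is 1 gene and black bars are medians. The median of the metabolic battery is 0.30 in the depleted and 0.04 in control cells with the points of both arrays overlapping, and the relatives of Tiparp sit lowest in control cells.

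As a check of the label, the signal of Thoc5 was 4808 without and 3047 with serum in control cells and 546 and 455 in the depleted cells, 7.10-fold and 5.39-fold lower after scaling. Per array 43020 spots were read. Between 62.1% and 64.4% of probes were well above background in a channel, and no spot was saturated. Of 12 fibroblast markers, 12 were well above background in at least 1 channel and 11 in all 4. Their summed level (log2, here and below without scaling between arrays) was 18.71 to 18.84 in control and 18.41 to 18.57 in the depleted cells. Lum was not well above background in the depleted cells, and 4 of 12 (Col3a1, Pdgfra, Lum and Fap) were 2-fold or more lower there without serum and 1 of 12 with serum, beside 2.08% and 2.25% of all genes. Epithelial markers were well above background somewhere for 5 of 6 (summed level 7.90 to 8.14 in control, 7.73 to 7.95 in the depleted cells) and Cdh1 was not, and Epcam (32.1 without and 32.6 with serum in control cells) was not well above background in the depleted cells, while Krt19 went the other way (72.3 in control and 118 in the depleted cells without serum). For endothelial markers it was 3 of 5 (9.99 to 10.15 and 9.80), without Tek and Emcn, and the log2 level of Cdh5 was lower by 1.12 in the depleted cells with serum. For haematopoietic markers it was 6 of 6 (12.84 to 13.18 and 13.02 to 13.22). Ptprc, which defines that lineage, was not well above background in control cells and read 14.4 in both channels of the depleted cells, while Itgam read from 6314 to 8700. Cd68 was not well above background in control cells (11.6 and 11.8) and was 2-fold or more higher in both channels of the depleted cells (24.6 without serum). The part of these markers in the values of the members was not tested.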

How the data were processed

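Total RNA of control and THOC5 depleted MEF cells was measured on 2 dual-color Agilent arrays, 1 per condition. The authors deposited the output of Agilent Feature Extraction 10.7.3.1, which places probes on mm9. Its processed signals are, per the file headers, intensities from which background was subtracted and in which the dyes were normalized (linear and LOWESS) within the array, with substitute values for dim spots and no scaling between arrays. Normalization within an array sets the typical serum ratio to 1, so that a shift of all genes would not be seen. The authors also deposited a series table of log10 ratios without sign. Each of its values (100%, tolerance 1e-06) was the absolute log10 of Cy5 over Cy3 once signals below a floor of 10.6 (control) or 8.62 (depleted) were set to it, and it served only as an alternative with the scanner's sign. The limit of 1.3-fold between serum ratios was taken from the study's grouping of strongly induced genes and applied here to all detected genes, in both directions.

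Outlier spots (239 and 234) were left out and spots of a probe were averaged on the log2 scale. For 26412 of 35777 probes with a symbol the name was taken through the RefSeq accession (GRCm38.p6). The probe with the highest mean signal stood for a gene. A gene counted as raised or lowered at 1.5-fold within an array, with a dim channel at the lowest signal well above background, as higher or lower at 2-fold between arrays (limma 3.58.1, Aquantile), and as having a different serum ratio at 1.3-fold with all 4 channels well above background. Every probe of the 6 members is described, with the 3 genes nearest to each member and the 3 genes of each pathway list with the largest serum log2 ratio, and any other gene of those lists or of the marker lists is named for its call or because it was not detected, after its values were seen. Summed marker levels are the log2 of the sum of processed signals, without scaling between arrays. They therefore contain the difference between the arrays, which was -0.26 in the median log2 level of all genes (depleted over control). Members and lists were chosen with earlier results of these data known. The calculation was tested on simulated data. Calculations used Python 3.11.15 (pandas 2.3.3, numpy 2.4.6, matplotlib 3.10.9) and R 4.3.3. Alternatives were normexp with an offset of 50 and loess, no dye normalization, the series table, one spread of log ratios, other scalings between arrays, other fold limits and filters, the mean over probes, and outlier spots kept. The precision is limited by the number of arrays.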

Additional observations from a re-analysis of the deposited data

Results flagged for a closer look

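The brighter probe of Arnt had serum log2 ratios of opposite sign on the arrays, -0.24 for control and 0.02 for THOC5 depleted cells. The difference of 0.26 in size was below the software error of 0.29 and was not tested, since each condition had 1 array. The other Arnt probe had ratios of -0.25 and -0.14, of the same sign.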

How the results depend on the processing

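Over 180 alternative values of single members, 166 lay within the software error of the main value, 14 moved by more and 0 turned the direction of a called value. Of the 14, 8 came from leaving out the scaling between arrays, 3 from normexp with loess for Cyp1a1 (log2 serum ratios of 0.37 and 0.61, difference -0.24), 2 from the mean over the Arnt probes (-0.02 and 0.17 for the level) and 1 from one spread of log ratios for Tiparp (-0.01). The count of members raised in control cells was 1 in place of 2 with normexp and loess, with one spread of log ratios and at 2-fold. In THOC5 depleted cells it was 1 at 2-fold. With no filter on dim probes, 2 members in place of 1 were lowered in control cells and 1 was lower in unstimulated THOC5 depleted cells, which adds Ahrr although it was not well above background. At a level limit of 1.5-fold, 1 member was lower in unstimulated and 1 higher in serum-stimulated THOC5 depleted cells. The count with a larger serum ratio in THOC5 depleted cells was 1 with normexp and loess, 0 at 2-fold and 3 with no filter. The cause of these shifts was not tested. Over all genes, normexp with loess left 597 in place of 1095 lowered in control cells, 333 in place of 646 raised and 67 in place of 289 lowered in THOC5 depleted cells, and 1162 in place of 1757 with a larger ratio there. No scaling gave 677 in place of 397 lower without serum, and 699 in place of 420 lower and 290 in place of 458 higher with serum. Both channels well above background gave 256 lower and 245 in place of 423 higher without serum, and 290 higher with serum. Counts at other fold limits and with no filter moved with the limit, as they must. Leaving out a replicate was not possible, with 1 array per condition. Cy3 and Cy5 were paired within each array in the serum ratios, but no paired test was possible because each group holds a single sample.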
